A study of Danio rerio with 5 samples.

Results

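MHC class II molecules and the invariant chain that escorts them were examined in whole kidneys of adult zebrafish. The genes were taken by name, in any letter case, from 5 deposited count files: the invariant chain genes cd74a and cd74b, the class II chain genes mhc2dab and mhc2a, and ciita, which encodes the class II transactivator. Of these 5 names, 4 matched 1 gene ID each among the 32520 IDs of the files, and all 4 passed the filter on low counts. The name mhc2a is carried by no ID in the symbol table used and was not analysed here. The 15 other IDs whose symbol begins with mhc2 or cd74 were read beside them as the class II chain family, which holds 18 IDs with cd74a, cd74b and mhc2dab.

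The fish were of the strain labelled EK and 2.5 months old, and each library was made from the total RNA of 3 pooled kidneys, so a library is called a pool here. The wild-type group consisted of pools 1, 2 and 3. The runx1 null group consisted of pools 5 and 6, from siblings labelled runx1-/- (del8, hg96), an allele that lacks 8 bp. RUNX1 is a transcription factor on which blood stem cells depend for their emergence in the embryo, and the comparison asks what differs in the kidney, the blood-forming organ of adult fish, of animals without it. Pooling limits both groups as models, since differences between single fish are averaged. The sex of the fish and any shared clutch of the pools are not given in the sources used here, so p-values measure only the spread between these pools.

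A class II molecule is a pair of an alpha and a beta chain that displays peptides from engulfed material to helper T cells. While the pair is made, its peptide groove is filled by the invariant chain CD74, which steers it to the endosome, where proteases such as cathepsin S and legumain break CD74 down. Constitutive class II expression is a property of B cells, macrophages and dendritic cells, and it depends on CIITA, a coactivator that is recruited by the RFX complex, NF-Y and CREB at class II promoters. In zebrafish the class II genes form several related alpha and beta pairs, named by a final letter a or b.

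Counts in genes ranged from 27631376 to 33752278 per pool, so 3 counts corresponded to between 0.0876 and 0.113 CPM (counts per 1e+06 of the TMM-scaled library size). Kidney was recognisable in every pool, with nephron markers summing to between 55.2 and 2561 CPM and red-cell markers to between 6355 and 66750 CPM. The nephron score, a mean of log2 CPM, was higher, and the red-cell and thrombocyte scores lower, in both null pools than in all of wild type. The margin was narrow for nephron, at 3.873 in null pool 6 against 3.832 in wild-type pool 1. It was also narrow for red cells, at 10.501 in null pool 5 against 10.552 in wild-type pool 2. By summed CPM both of these lists overlapped between the groups, with 307 CPM of nephron markers in null pool 6 and 45480 CPM of red-cell markers in null pool 5. Null pool 5 was the pool with 2561 CPM of nephron markers. Liver markers, at 1493 to 88500 CPM, and ovary markers overlapped between the groups. Ovary markers summed to 1518 CPM in wild-type pool 2 and 9405 CPM in null pool 6, against at most 15.9 CPM in the other pools. The level of RUNX1 did not check the labels: it had between 87 and 139 counts in wild type, 184 in null pool 5 and 56 in null pool 6, and a count over the whole gene cannot show a missing 8 bp. Results are therefore also given without wild-type pool 2 and null pool 6, and on each side of that split.

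The invariant chain genes were high in every pool but null pool 6. The gene cd74a (ENSDARG00000009087) measured 256, 314 and 161 CPM in wild-type pools 1, 2 and 3, then 412 CPM in null pool 5 and 65.3 CPM in null pool 6. The gene cd74b (ENSDARG00000036628) measured 162, 178 and 87.7 CPM in wild-type pools 1, 2 and 3, then 254 CPM in null pool 5 and 32.2 CPM in null pool 6. For both genes the highest and the lowest of the 5 pools were the null pools, with all of wild type between them. The group means were nearly equal and the spreads unequal. For cd74a, wild type averaged 244 ± 77.4 CPM (SD, n = 3) and runx1 null 238 ± 245 CPM (SD, n = 2). For cd74b, wild type averaged 143 ± 48.3 CPM (SD, n = 3) and runx1 null 143 ± 156 CPM (SD, n = 2).

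The invariant chain genes kept a narrow ratio to each other. Counts of cd74a over those of cd74b gave 1.58, 1.76 and 1.83 in wild-type pools 1, 2 and 3, with 1.62 in null pool 5 and 2.03 in null pool 6. This ratio varied 1.28-fold over the pools, while the level of cd74a varied 6.3-fold and that of cd74b 7.87-fold. Among the 10078 tested genes that averaged at least 10 CPM, 32.6% varied at least as widely as cd74a over the 5 pools. For cd74b this share was 26.9%. Transcript lengths were not used, so the ratio describes counts and not molecules.

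**Figure D1:**
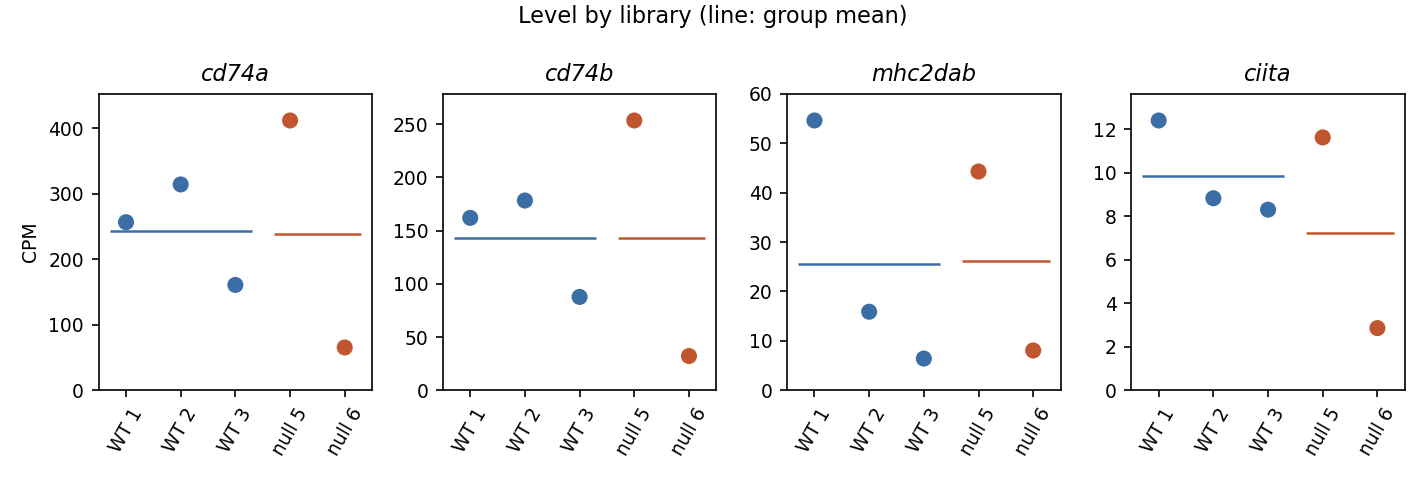
Level of each member in CPM on linear axes that start at 0, 1 point per pool, with wild type in blue, runx1 null in orange and a line at each group mean. In cd74a and cd74b the highest point is null pool 5 (412 and 254 CPM) and the lowest null pool 6 (65.3 and 32.2 CPM), with group means almost level.

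The beta chain gene mhc2dab (ENSDARG00000079105) behaved differently within wild type. It measured 54.6, 15.9 and 6.42 CPM in wild-type pools 1, 2 and 3, then 44.3 CPM in null pool 5 and 8.05 CPM in null pool 6. Here the extremes were both wild type, with pool 1 the highest and pool 3 the lowest, and the null pools lay between them. Wild type alone spanned 8.51-fold, a range reached or exceeded by 11.1% of the 10078 tested genes that averaged at least 10 CPM. For cd74a the wild-type range was 1.95-fold, which 32.6% of these genes reached.

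The transactivator gene ciita (ENSDARG00000090851) was the least variable member. It measured 12.4, 8.83 and 8.31 CPM in wild-type pools 1, 2 and 3, then 11.6 CPM in null pool 5 and 2.86 CPM in null pool 6. Null pool 6 stood below the wild-type range, and null pool 5 lay inside it. Over the 5 pools ciita varied 4.34-fold, a width reached by 44.2% of the same 10078 genes. Wild type averaged 9.85 ± 2.23 CPM (SD, n = 3) and runx1 null 7.25 ± 6.20 CPM (SD, n = 2).

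Of the 15 further family IDs, 6 passed the filter on low counts. The alpha chain gene mhc2daa measured 26.3, 19.1 and 8.61 CPM in wild-type pools 1, 2 and 3, then 34.7 CPM in null pool 5 and 5.95 CPM in null pool 6. The alpha chain gene mhc2dga measured 8.24, 19.0 and 9.10 CPM in wild-type pools 1, 2 and 3, then 28.4 CPM in null pool 5 and 4.32 CPM in null pool 6. Both were highest in null pool 5 and lowest in null pool 6, like the invariant chain.

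Beta chain gene mhc2dgb measured 14.0, 30.1 and 16.4 CPM in wild-type pools 1, 2 and 3, then 43.2 CPM in null pool 5 and 4.14 CPM in null pool 6. Beta chain gene mhc2dhb measured 26.0, 62.4 and 33.0 CPM in wild-type pools 1, 2 and 3, then 67.8 CPM in null pool 5 and 6.83 CPM in null pool 6. Within wild type these genes, like mhc2dga, were highest in pool 2, not in pool 1 as mhc2dab and mhc2daa were. The remaining tested genes were low. The gene mhc2d4b had 10 to 79 counts in a pool and at most 2.85 CPM, and mhc2d8.37a2 had 5, 25 and 0 counts in wild-type pools 1, 2 and 3, 121 counts in null pool 5 and 0 in null pool 6. The 9 IDs that failed the filter had at most 28 counts in a pool, and mhc2dcb had none in any.

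Genotype was tested with edgeR's quasi-likelihood test over all 20386 genes that passed the filter. No gene had an adjusted p-value under 0.05, a background of 0%, and the smallest was 0.612. At an unadjusted p under 0.05 the share of genes was 4.37%, made up of 3.16% higher and 1.21% lower in runx1 null, and DESeq2's Wald test called 75 genes, 0.379% of those to which it gave an adjusted p. Scaled to the macrophage markers, edgeR called 2027 genes, 2004 higher and 23 lower. No member was among them, but irf1a, ctss2.1, mhc1haa and cd79a of the genes named here were. That scaling moved the median log2 fold change of all genes from 0.243 to 1.17. The macrophage markers summed lowest in null pool 6, at 91.4 CPM. Among the members, 0 of 4 passed in edgeR, 0 of 4 had an unadjusted p under 0.05 and 0 of 4 passed in DESeq2. Of the members 2 of 4 had a negative log2 fold change, as did 41.8% of all tested genes.

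The log2 fold changes of the members, null over wild type, were small beside their errors, which lay between 0.759 and 1.1. That of cd74a was -0.03 (SE 0.811; edgeR adjusted p 0.987) and that of cd74b 0.0017 (SE 0.869; edgeR adjusted p 0.999). That of mhc2dab was 0.03 (SE 1.1; edgeR adjusted p 0.991). That of ciita was -0.44 (SE 0.759; edgeR adjusted p 0.804). The members had a median of -0.01 and all tested genes one of 0.24. These p-values do not show that the genotypes express the genes alike.

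The sign of every member's fold change rested on which null pool was in the fit. Without null pool 6 the log2 fold changes were 0.79 for cd74a, 0.86 for cd74b, 0.82 for mhc2dab and 0.27 for ciita. Without null pool 5 they were -1.93, -2.18, -1.70 and -1.81 in the same order. The other tested chain genes mhc2daa, mhc2dga, mhc2dgb and mhc2dhb, at 0.17, 0.43, 0.23 and -0.12 in the fit with all pools, turned in the same way. Of the adjusted p-values of members over all alternatives tried, the lowest was 0.119, for cd74b without null pool 5 in edgeR, and the highest 0.999.

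**Figure D2:**
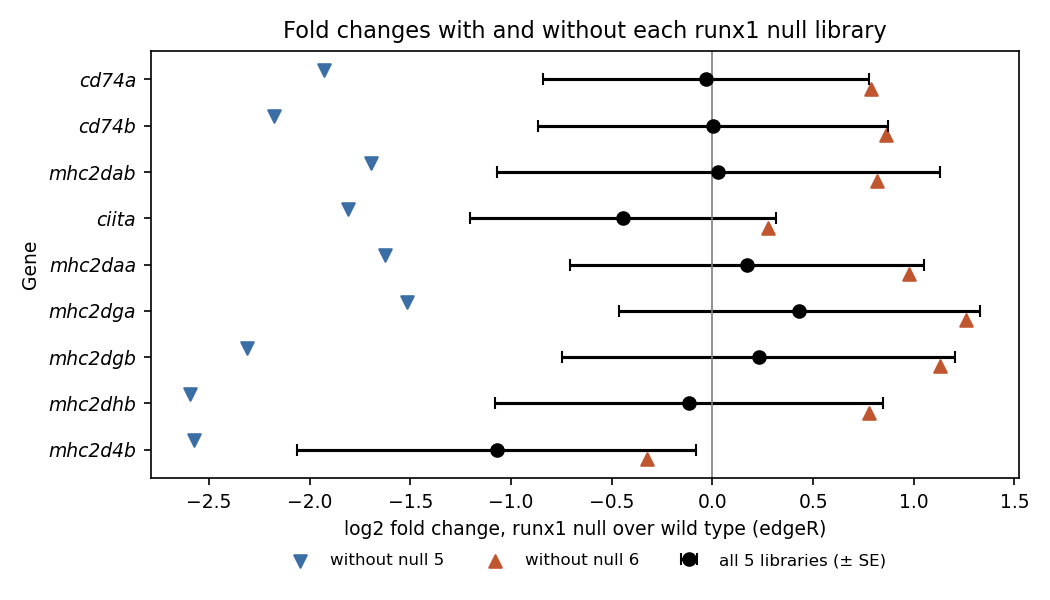
Log2 fold change of each gene in edgeR, runx1 null over wild type: black points with bars of 1 SE use all 5 pools, blue triangles leave out null pool 5 and orange triangles leave out null pool 6. The fits without null pool 5 all lie below 0 (cd74a at -1.93), and those without null pool 6 lie above 0 except that of mhc2d4b.

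Position among the pools was counted over the family. Null pool 5 was the highest pool for 7 of the 9 tested IDs, where the background over all tested genes was 22.8%, and null pool 6 was the lowest for 7 of 9, with a background of 36.4%. Both held for 6 of 9, with a background of 8.55%. These counts leave out the IDs that failed the filter. The gene mhc2d8.37a2 passed it only through wild-type pool 2 and null pool 5, with 25 and 121 counts, and was highest in the latter. The IDs were read in the same 5 pools and several vary together, so they are not independent. Both positions also held for 10 of 27 class I presentation genes, 4 of 15 loading compartment genes and 2 of 11 macrophage genes. In no tested family gene did both null pools lie on the same side of all wild-type pools, where 14.8% of all genes were lower and 11.1% higher in both.

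Within the split by ovary markers the direction was not the same on both sides. Null pool 6 and wild-type pool 2 both held ovary RNA, but unequally, at 9405 and 1518 CPM of ovary markers. Between these pools, null minus wild type, cd74a differed by -2.26 and cd74b by -2.47 on the log2 CPM scale. Between null pool 5 and the average of wild-type pools 1 and 3 they differed by 1.02 and 1.09. In the same order of sides, the mean log2 CPM of macrophage markers differed by -2.56 and 0.49. That of B-cell markers differed by -2.93 and -1.74. The fall on the first side was shared by the neutrophil, thrombocyte and red-cell scores, at -3.15, -3.10 and -2.75. It was smaller for the dendritic and T-cell scores, at -1.32 and -0.52, and the nephron score differed by 0.13. In edgeR the side of null pool 5 with wild-type pools 1 and 3 gave log2 fold changes of 0.95 for cd74a (SE 0.515; adjusted p 0.68) and 0.99 for cd74b (SE 0.54; adjusted p 0.68), where the lone null pool is assumed to vary like wild type. The other side holds 1 pool of each genotype and allows no test. In bulk RNA, fewer cells of a type and less RNA per cell cannot be told apart. An edgeR fit of all 5 pools with the ovary marker score as a covariate gave log2 fold changes of -0.23 for cd74a and -0.26 for cd74b. That fit does not divide the differences between single pools, and the part of ovary RNA in them was not tested.

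B-cell content was read from 12 marker genes, and their mean log2 CPM did not follow the class II genes. The B-cell receptor chain gene cd79a measured 5.02, 2.09 and 1.93 CPM in wild-type pools 1, 2 and 3, 0.161 CPM in null pool 5, where it had 5 counts, and 0 in null pool 6. Its partner cd79b measured 5.28, 2.96 and 3.02 CPM in wild-type pools 1, 2 and 3, then 0.482 CPM in null pool 5 and 0.0584 CPM in null pool 6. PAX5, the transcription factor that fixes B-cell identity, averaged 3.21 ± 1.38 CPM (SD, n = 3) in wild type against 0.298 ± 0.239 CPM (SD, n = 2) in runx1 null. Null pool 5 was thus the pool with the most cd74a and cd74b and had little of either receptor chain.

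Over the whole B-cell list, 8 of 12 genes were lower in both null pools than in all of wild type, where the background was 14.8%, and the median log2 fold change was -2.33. By edgeR's adjusted p-value none was called, 6 of 12 were lower at an unadjusted p under 0.05, where the background was 1.21%, and DESeq2 called 2, cd79a and cd79b. The list summed to between 68.8 and 140 CPM in wild type, to 63.0 CPM in null pool 5 and to 18.1 CPM in null pool 6, where cd79a and CXCR5 were at 0 counts. On the log2 scale the fold change was -2.76 for cd37, a membrane protein of B cells. It was -4.09 for the recombination gene RAG1, which had 4 counts in null pool 5 and 1 in null pool 6. All 12 genes had a negative fold change, but RAG2 was at only -0.15 and highest in null pool 6, at 1.63 CPM. BTK was highest in null pool 5 (37.6 CPM) and lowest in null pool 6 (10.8 CPM), as cd74a was, with 21.6 to 35.3 CPM in wild type.

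Each member was then expressed relative to the mean log2 CPM of the B-cell markers in the same pool. Relative to these markers cd74a stood at 5.43, 6.41 and 6.0 on the log2 scale in wild-type pools 1, 2 and 3, at 8.48 in null pool 5 and at 7.07 in null pool 6. The null mean exceeded the wild-type mean by 1.83 for cd74a, 1.75 for cd74b, 2.44 for mhc2dab and 1.61 for ciita. Without null pool 5 the differences were 1.12, 0.888, 1.83 and 1.23 in the same order. For all 4 members both null pools lay above all of wild type, which was also so for 76.3% of all tested genes, and the B-cell score itself differed by -2.35 between the group means. No member lay below wild type in both null pools, as 0.245% of genes did. The exact two-sided permutation p was 0.1 for cd74a, cd74b and ciita, the smallest that 3 against 2 pools allow, and 0.2 for mhc2dab. Benjamini-Hochberg values were 0.267 and 0.4 over the 8 comparisons of members with the B-cell and macrophage markers. Comparisons with other genes or lists were not part of this adjustment.

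Macrophage markers lay closer to the invariant chain over the pools. The list of 11 genes summed to 430.2, 428 and 196 CPM in wild-type pools 1, 2 and 3, to 406 CPM in null pool 5 and to 91.4 CPM in null pool 6. The scavenger receptor gene marco measured 152, 136 and 70.4 CPM in wild-type pools 1, 2 and 3, then 220.5 CPM in null pool 5 and 50.9 CPM in null pool 6. This was the same order of pools as for cd74b except that wild-type pool 1 exceeded pool 2.

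Of the other macrophage genes named here, IRF8, csf1ra and cxcr3.2 were lower in both null pools than in all of wild type. IRF8, a transcription factor of macrophages and B cells, measured 28.8, 26.7 and 17.6 CPM in wild-type pools 1, 2 and 3, then 8.68 CPM in null pool 5 and 2.57 CPM in null pool 6. The receptor genes csf1ra and cxcr3.2 had log2 fold changes of -1.44 and -2.44, and the complement gene c1qb, whose groups overlapped, had -1.20. Without null pool 6 these were -0.74, -1.66 and -0.53, and without null pool 5 they were -2.73, -4.17 and -2.43. The gene timd4, for a receptor by which macrophages take up dying cells, was at 1.52, and at -1.23 without null pool 5. Its counts were low, at 13, 13 and 10 in wild-type pools 1, 2 and 3, 68 in null pool 5 and 6 in null pool 6. In the list 3 of 11 genes were lower in both null pools, against a background of 14.8%, and none was called by edgeR or DESeq2. The median log2 fold change was -0.89, but -0.13 without null pool 6 and 0.014 without wild-type pool 2 and null pool 6.

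Relative to the macrophage markers, cd74a stood at 3.99, 4.10 and 4.40 on the log2 scale in wild-type pools 1, 2 and 3, at 4.72 in null pool 5 and at 4.39 in null pool 6. The groups overlapped. The 6.3-fold range of cd74a over the pools came down to 1.67-fold on this measure, against 8.27-fold relative to the B-cell markers. On the log2 scale cd74a ran from 5.28 to 6.54 relative to dendritic markers and from 3.08 to 4.34 relative to class I presentation genes. The share of all genes that narrow as much was not computed. Against the macrophage markers, the null mean exceeded the wild-type mean by 0.40 for cd74a and by 0.32 for cd74b. Each had an exact permutation p of 0.3 and a Benjamini-Hochberg value of 0.4. Without null pool 5 the difference was 0.231 for cd74a and -0.005 for cd74b. The difference was 1.0 for mhc2dab and 0.18 for ciita, with exact permutation p-values of 0.4 and 0.8, and for ciita it was -0.134 without wild-type pool 2. Leaving out wild-type pool 1 took the difference for mhc2dab to 1.66, and that for ciita came to 0.012 without null pool 6. For 0 of 4 members did the groups separate, where 18.5% of all tested genes were higher and 3.06% lower in both null pools on this measure. Of the 6 further chain genes tested, mhc2daa and mhc2dga did separate, with both null pools above all of wild type and differences of 0.73 and 0.89. Each had an exact permutation p of 0.2, not adjusted for the number of comparisons. Relative to the B-cell markers mhc2daa, mhc2dga and mhc2dgb separated in the same way, while mhc2dhb, mhc2d4b and mhc2d8.37a2 overlapped. On that measure 76.3% of all tested genes were higher in both null pools.

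**Figure D3:**
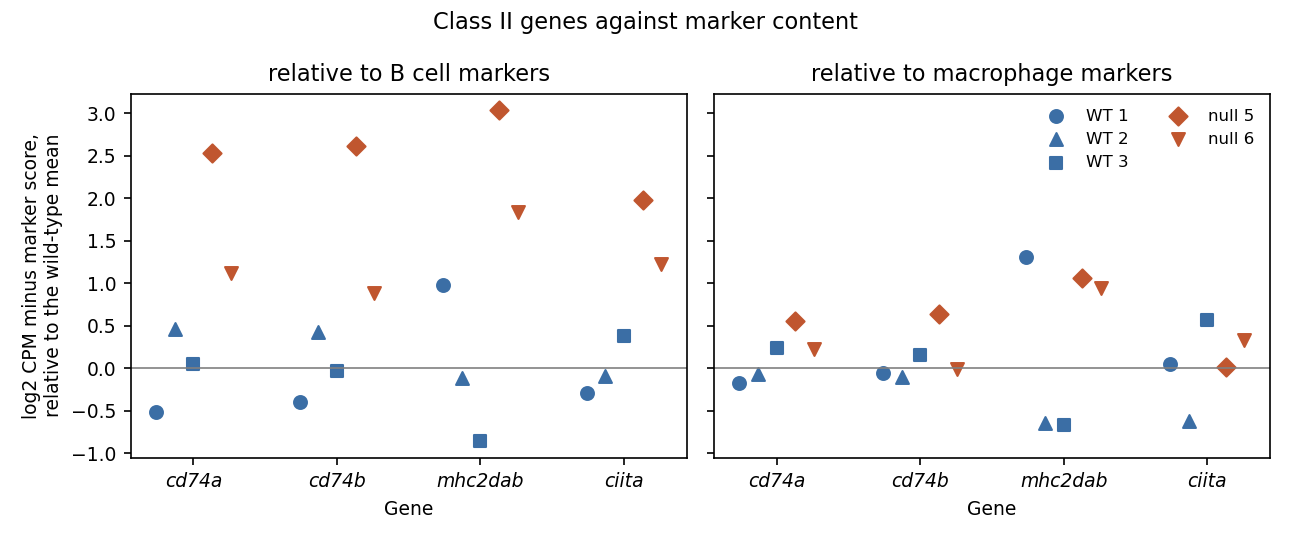
Log2 CPM of each member minus the mean log2 CPM of the B-cell markers (left) or the macrophage markers (right), shifted so that the wild-type mean is 0, with 1 symbol per pool. Against B-cell markers both null pools lie above all wild-type pools for every member, as they do for 76.3% of all tested genes. The differences in means run from 1.61 to 2.44. Against macrophage markers the groups overlap, with differences from 0.18 to 1.0.

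The same comparison was made over the profile of the 5 pools. After centring each log2 CPM profile on its mean, the root mean square difference from the macrophage score was 0.259 for cd74a, 0.272 for cd74b, 0.399 for ciita and 0.873 for mhc2dab. From the B-cell score it was 1.05 for cd74a and cd74b, 0.851 for ciita and 1.38 for mhc2dab. From the T-cell score it was 0.603 for cd74a, 0.687 for cd74b, 0.638 for ciita and 0.812 for mhc2dab, for which this was the nearest of the 4 scores. The dendritic score lay at 0.441 from cd74a and, at 0.324, was the nearest of the 4 scores to ciita. These distances describe 5 pools that also share differences in ovary, nephron and red-cell RNA.

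**Figure D4:**
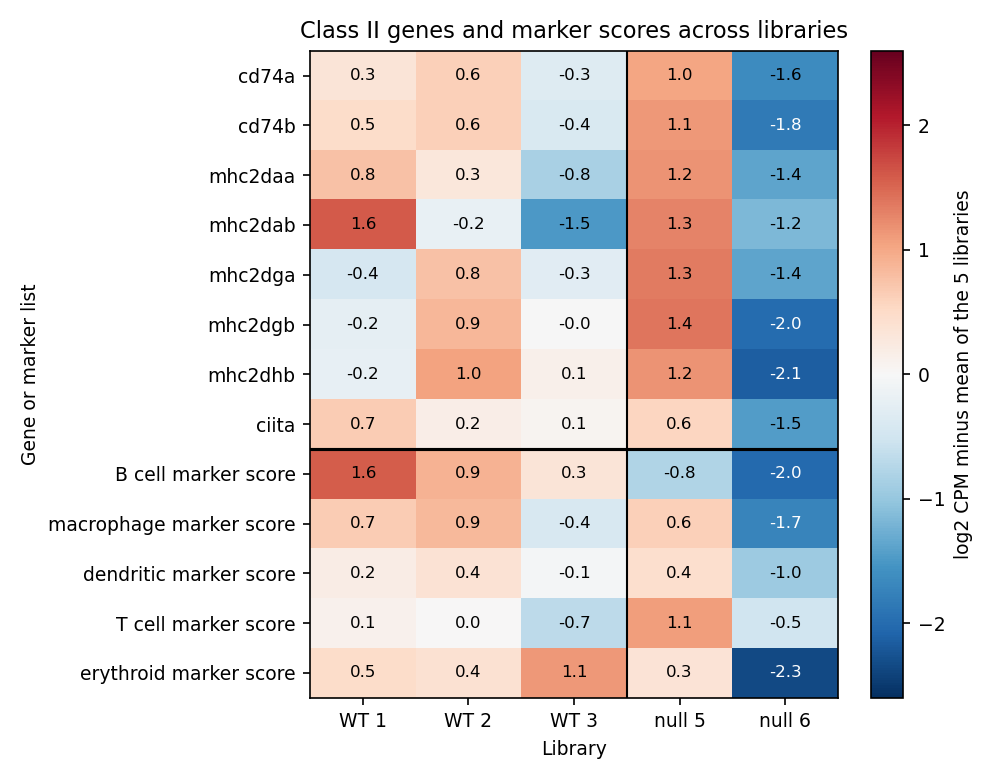
Log2 CPM of class II genes, ciita and the mean of 5 marker lists, each minus its own mean over the pools, with red above and blue below that mean. Null pool 6 is below the mean in every line, and null pool 5 is above it for every class II gene while the B-cell score is below it there.

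Dendritic and T-cell markers stand for the other cells that make or read class II. Among 7 dendritic genes, 1 was lower in both null pools, a share close to the background of 14.8%. It was cd40, the receptor through which T cells activate antigen-presenting cells. Its log2 fold change was -1.39, which was -0.61 without null pool 6 and -3.00 without null pool 5. ZBTB46, a dendritic transcription factor, was at -0.72, with -0.24 and -1.42 in the same fits. The sign rested on 1 pool for the others: the growth factor receptor gene flt3 was at -0.52 and BATF3 at 1.63, but at 0.29 and -0.33 without null pool 6, and the activation marker cd83 was at 0.30, but at -0.041 without null pool 5.

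The T-cell list had a positive median of 0.86 over 10 tested genes, and of 1.5 without null pool 6, and 9 of the genes were highest in null pool 5, against the background of 22.8%. Of these, TCF7 and il7r had log2 fold changes of 1.67 and 1.62 and were higher in both null pools. The receptor signalling chain gene cd247 was lower in both, at 10.5 CPM in null pool 5 and 1.28 CPM in null pool 6 against 11.9 to 19.7 CPM in wild type, with a log2 fold change of -1.35. The coreceptor gene cd4-1, whose protein binds class II, measured 1.85, 3.10 and 0.755 CPM in wild-type pools 1, 2 and 3, then 3.15 CPM in null pool 5 and 0.817 CPM in null pool 6. By edgeR's adjusted p-value no dendritic or T-cell gene was called.

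The regulators of class II genes, ciita among them, were examined as a list of 13 matched genes, of which 10 passed the filter on low counts and none passed the test in either direction. The RFX subunit gene rfx5 measured 31.0, 23.5 and 38.3 CPM in wild-type pools 1, 2 and 3, then 26.4 CPM in null pool 5 and 5.34 CPM in null pool 6. RFXANK ranged from 4.65 to 7.07 CPM in wild type and measured 5.56 CPM in null pool 5 and 1.46 CPM in null pool 6. Both lay within the wild-type range in null pool 5 and below it in null pool 6, as ciita did. The NF-Y subunit gene NFYC was higher in both null pools at a log2 fold change of 0.55, which was 0.26 without null pool 6.

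The most negative of the regulators was nlrc5, a relative of ciita known in mammals as the transactivator of class I genes. It measured 210.5, 148 and 259 CPM in wild-type pools 1, 2 and 3, then 99.5 CPM in null pool 5 and 13.2 CPM in null pool 6, and its log2 fold change was -1.87 (edgeR adjusted p 0.612). This was -1.01 without null pool 6 and -3.99 without null pool 5. The interferon-responsive factor gene irf1a had a log2 fold change of 2.44 with 4.32 CPM in null pool 6 and at most 0.901 CPM elsewhere, and one of -2.54 without that pool. The list had a median of -0.38, against 0.24 over all tested genes. Without null pool 6 these medians were 0.10 and -0.04.

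Genes of the compartment in which class II is loaded differed from one another. Of 15 tested genes none passed the test, 9 had a negative and 6 a positive log2 fold change, and the median was -0.18, but 0.26 without null pool 6. The legumain gene LGMN measured 448, 416 and 231 CPM in wild-type pools 1, 2 and 3, then 1254 CPM in null pool 5 and 213 CPM in null pool 6. The thiol reductase gene ifi30a measured 54.8, 102 and 17.4 CPM in wild-type pools 1, 2 and 3, then 253 CPM in null pool 5 and 53.9 CPM in null pool 6. Both had their highest value in null pool 5, as cd74a did.

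The cathepsin genes of this list were spread differently. The cathepsin S gene ctss1 was highest in wild-type pool 1, at 21.9 CPM, and at most 5.01 CPM elsewhere. Its relative ctss2.1 measured 625 CPM in null pool 6 and 133 CPM in wild-type pool 2, the pools with ovary markers, and at most 32.3 CPM elsewhere. Its log2 fold change was 2.54, and -0.78 without null pool 6. The cathepsin L gene ctsla was higher in both null pools, with a log2 fold change of 1.05.

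Class I presentation genes gave a comparison outside class II. Of 27 tested genes none passed the test, 18 had a negative fold change, and the median was -0.38, but 0.26 without null pool 6. In 7 of them both null pools were below wild type and in 3 above, shares of the list that compare with backgrounds of 14.8% and 11.1%. The class I gene mhc1haa measured 4.43, 5.59 and 1.62 CPM in wild-type pools 1, 2 and 3, then 32.6 CPM in null pool 5 and 19.4 CPM in null pool 6. Its log2 fold change was 2.75 with an SE of 0.703, and its adjusted p-value was 0.612 in edgeR and 0.0638 in DESeq2. The class I genes mhc1zda and mhc1lia were at -1.54 and -1.50, at -0.77 and -1.02 without null pool 6, and at -3.12 and -2.18 without null pool 5. Counts of mhc1zda were 123 to 1191 in a pool. Those of mhc1lia were near the floor, at 15, 15 and 6 in wild-type pools 1, 2 and 3, 6 in null pool 5 and 3 in null pool 6.

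Siblings can inherit different class II haplotypes, and reads of a divergent allele can be lost or counted at a related gene. The deposited counts give no alleles, so the split of counts among related genes was examined instead. Among the counts of the beta chain genes mhc2dab, mhc2dgb and mhc2dhb, mhc2dab took 57.7% in wild-type pool 1 (95% Wilson interval 56.0% to 59.4%). It took 14.7% in wild-type pool 2 (13.5% to 16.0%) and 11.5% in wild-type pool 3 (9.97% to 13.2%). In null pool 5 its share was 28.5% (27.3% to 29.8%) and in null pool 6 it was 42.3% (38.6% to 46.2%). The intervals, which cover counting error only, did not overlap for any pair of pools. The share did not follow genotype, since wild type held both its highest and its lowest values.

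**Figure D5:**
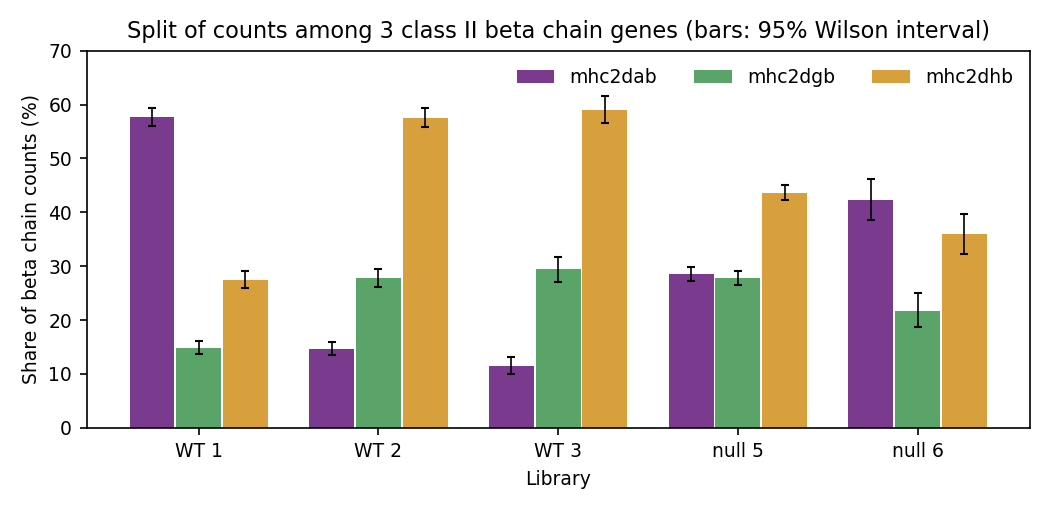
Share of the summed counts of 3 class II beta chain genes that each gene took in each pool, in percent, with 95% Wilson intervals for counting error. The mhc2dab bar is tallest in wild-type pool 1 (57.7%) and shortest in wild-type pool 3 (11.5%), with the null pools between them.

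The alpha chain genes shifted in the same pool. Among the counts of mhc2daa and mhc2dga, mhc2daa took 76.2%, 50.1% and 48.6% in wild-type pools 1, 2 and 3, with 55.0% in null pool 5 and 58.0% in null pool 6. The ratio of mhc2dab to mhc2daa was 2.07, 0.831 and 0.746 in wild-type pools 1, 2 and 3, with 1.28 in null pool 5 and 1.35 in null pool 6. The remaining beta chain genes kept a steadier ratio to each other: mhc2dhb over mhc2dgb ranged from 1.57 to 2.07, a 1.32-fold span, whereas mhc2dab over mhc2dhb spanned 10.8-fold. Of the 13 ratios computed among these genes, cd74a, cd74b and ciita, 2 were lower in both null pools than in all of wild type. These were mhc2dhb over mhc2dgb, at 1.57 and 1.65 against 1.86 to 2.07, and mhc2dgb over mhc2dga, at 1.52 and 0.959 against 1.58 to 1.8. Each had an exact two-sided permutation p of 0.1, the smallest possible, and a Benjamini-Hochberg value of 0.65 over the 13 ratios. In the other direction, mhc2dga over cd74a was higher in both null pools, at 0.069 and 0.0662 against 0.0322 to 0.0606 in wild type. Its exact permutation p was 0.3 and its Benjamini-Hochberg value 0.827. The share of other gene pairs whose ratios separate the groups was not computed.

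In the RefSeq gene table of the assembly GRCz12tu, mhc2dga, mhc2dgb, mhc2dhb and mhc2daa follow each other with no other protein-coding gene between them, and mhc2dab is not listed under that symbol. Reads with more than 1 alignment were 8.58% to 10.3% of all reads, and 9.23% in wild-type pool 1. Unaligned reads were 5.21% to 6.67%, and 6.19% in wild-type pool 1. These rates cover whole libraries and cannot show reads lost or moved among a few related genes. Counts of these related genes are uncertain to the extent that reads fit several of them, and the part of haplotype or of alignment in the shift of mhc2dab was not tested.

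Genes with the most similar profiles over the 5 pools were found by the smallest root mean square difference of centred log2 CPM among 10078 genes. For cd74a they were SORT1, cd74b, anxa3b, ADCY7 and JUNB, at 0.082, 0.128, 0.161, 0.178 and 0.179, and for cd74b they were cd74a, SORT1, CD63, ADCY7 and anxa3b, at 0.128 to 0.226. The other cd74 gene was thus the second nearest of all genes to cd74a and the nearest to cd74b. For ciita the nearest were NEDD4, MACROH2A2, EPS15L1, MYADM and WDFY3, at 0.056 to 0.116, and cd74a ranked only 599. The gene mhc2dab had no close neighbour. Its nearest genes GJA1, CYFIP2, lifrb, dnah5l and rasal3 lay at 0.397 to 0.476, and mhc2daa ranked 7 at 0.529, ahead of cd74b at 200 and cd74a at 263.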

How the data were processed

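For every pool the authors deposited a file of raw counts, in whole reads, for each Ensembl gene ID. Per the submitters' processing notes, HISAT2 2.2.1.0, HTSeq 0.11.4, DESeq2 and the build GRCz11 were used; the annotation release and the strand setting are not given in the sources used here. Counts given to no gene, 28.2% to 39.4% of reads, were left out of library sizes. Members, lists and tests were chosen with earlier results of these data known.

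Symbols came from a table that names 29201 of 32520 IDs. Marker names carried by several IDs were left out: NFYA, MFAP4, CMKLR1 and CXCR1. Genes were kept by filterByExpr (minimum count 10, minimum total 15), scaled with TMM factors of 0.92 to 1.09 and tested with edgeR 4.0.16 (robust quasi-likelihood, two-sided, Benjamini-Hochberg, threshold 0.05). Standard errors were derived from the fold change and its F statistic. Log2 CPM used a prior count of 2. Marker scores are means of log2 CPM over the tested genes of a list. Named genes were the members, the tested chain family and the 5 nearest profiles. Added to them by rule were the 3 genes with the smallest p-values of a list (5 for B cells, macrophages and dendritic cells). The genes rfx5, RFXANK, LGMN, ifi30a, marco, cd247, cd4-1, RAG2, BTK and CXCR5 were named after their values were seen. Not reported here is 1 gene of the T-cell list that this rule selects. The 10 pairs of libraries all differed far beyond counting error.

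On data simulated for this comparison with the spread of these libraries, the test called 0 of 200 genes changed 8-fold; with a dispersion of 0.04 it called 200. Alternatives were DESeq2 1.42.0, other scalings, filters and thresholds, an ovary covariate and leaving out libraries. R 4.3.3, Python 3.11.15, pandas 2.3.3, scipy 1.17.1 and matplotlib 3.10.9 were used.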

Additional observations from a re-analysis of the deposited data

Results flagged for a closer look

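For several genes null pool 6 lay below wild-type pool 2 while null pool 5 lay above both wild-type pools 1 and 3, which are the 2 sides of the split by ovary markers. The difference between the sides was not tested. On the side of null pool 5 alone, no gene listed here was called by edgeR, with a lowest adjusted p of 0.502, for mhc2dga and mhc2d8.37a2. The values are log2 CPM differences, null pool 6 minus wild-type pool 2 first and null pool 5 minus the average of wild-type pools 1 and 3 second. They were -2.26 and 1.02 for cd74a, -2.47 and 1.09 for cd74b, and -1.67 and 1.2 for mhc2daa. They were -2.12 and 1.71 for mhc2dga, -2.84 and 1.5 for mhc2dgb, and -3.18 and 1.21 for mhc2dhb. For the genes with the lowest counts they were -3.03 and 0.22 for mhc2d4b and -3.89 and 5.07 for mhc2d8.37a2. In mhc2d4b null pool 5 was level with wild-type pool 1, at 1.35 CPM in each. For mhc2dab and ciita the values were -0.98 and 1.24, and -1.60 and 0.20. These also differ in sign, but null pool 5 lay below wild-type pool 1 for both genes. Opposite signs were not particular to class II genes. The same differences in list scores were -2.56 and 0.49 for macrophage and -1.32 and 0.37 for dendritic markers. They were -0.52 and 1.38 for T-cell markers and -1.14 and 0.35 for class I presentation genes. The B-cell, neutrophil, thrombocyte, red-cell and class II regulator scores were negative on both sides.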

How the results depend on the processing

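No paired analysis was possible because no replicate number occurs in both genotypes, and nothing was run for mhc2a. Every member had at least 98 counts in each pool, while cd74a and cd74b had null pools on opposite sides of wild type. Chosen after seeing the data were the omission of wild-type pool 2 with null pool 6 and the use of all IDs under a shared marker name. No member passed an adjusted p of 0.05 under any alternative run, but signs near 0 turned often. The number of genes called was 2027 with scaling to macrophage markers (2004 higher, 23 lower), which moved the median log2 fold change of all genes by 0.93, and 75 with DESeq2's Wald test (23 higher, 52 lower). It was 0 in edgeR under every other alternative. Macrophage scaling brought past the threshold irf1a at 4.39 (adjusted p 0.0137), ctss2.1 at 4.63 (0.0131), mhc1haa at 3.79 (0.0431) and cd79a at -5.02 (0.0191), and the Wald test cd79a and cd79b. Scaling to B-cell markers moved that median by 1.61, and upper quartile scaling by -0.18. Log2 fold changes whose sign turned were, with scaling to macrophage markers, 0.27 for cd74a and 0.11 for ZBTB46. Scaling to B-cell markers gave 1.015 for cd74a, 0.76 for ciita, 0.061 for mhc2d4b, 0.71 for mhc2dhb, 0.080 for c1qb, 0.78 for ZBTB46 and 0.56 for flt3. With at least 10 counts in every pool cd74a was at 0.025, and mhc2d8.37a2 was left out by that filter and in the fit without wild-type pool 2. DESeq2, as size factors and as the Wald test, gave -0.069 for cd74b and -0.033 for mhc2dab, and upper quartile scaling -0.018 and -0.046. The ovary covariate gave -0.26 for cd74b and -0.099 for mhc2dgb. Without wild-type pool 2 and null pool 6 the values were 0.95 for cd74a, 0.13 for ciita, 0.17 for mhc2d4b, 1.16 for mhc2dhb and 0.11 for flt3. The same omission gave -0.297 for ciita relative to macrophage markers, which was -0.11 with every ID that shares a marker name. The cause of these changes was not tested.

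Leaving out 1 pool at a time gave log2 fold changes of -1.93 to 0.79 for cd74a, -2.175 to 0.86 for cd74b, -1.70 to 1.29 for mhc2dab and -1.81 to 0.27 for ciita. They were -1.63 to 0.97 for mhc2daa, -1.52 to 1.26 for mhc2dga, -2.31 to 1.13 for mhc2dgb, -2.59 to 0.78 for mhc2dhb and -6.44 to 3.49 for mhc2d8.37a2. They were -2.54 to 3.39 for irf1a, -0.78 to 4.21 for ctss2.1, -1.23 to 2.44 for timd4, -0.33 to 2.41 for BATF3, -2.32 to 0.29 for flt3 and -0.041 to 0.59 for cd83. Relative to macrophage markers the ranges were 0.231 to 0.561 for cd74a, -0.005 to 0.645 for cd74b, 0.669 to 1.66 for mhc2dab and -0.134 to 0.459 for ciita. Relative to B-cell markers they were 1.12 to 2.53 for cd74a, 0.888 to 2.62 for cd74b, 1.83 to 3.04 for mhc2dab and 1.23 to 1.99 for ciita.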
